A study of Mus musculus with 18 samples.

Results

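The genes described here encode 2 BET proteins, Brd2 and Brd3, and the machinery of positive transcription elongation factor b (P-TEFb), namely Cdk9, Ccnt1, Ccnt2, Aff4, Hexim1, Larp7 and Mepce. The 9 genes were chosen by name, with earlier results of these data known, out of 24485 genes listed for each library. All 9 were found and passed the filter on low counts in every comparison. BET proteins bind acetylated histones through their bromodomains, and the small molecule (+)-JQ1 (JQ1 below) occupies the pocket that binds the acetyl group. P-TEFb is the kinase CDK9 paired with a cyclin T, and it phosphorylates paused RNA polymerase II and its pausing factors so that elongation can proceed. Much of P-TEFb is held inactive in a particle built on the 7SK small nuclear RNA, in which HEXIM1 inhibits the kinase, LARP7 binds the end of the RNA and MEPCE caps its start, and AFF4 is the scaffold of the super elongation complex that carries the released kinase.

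RNA-seq was performed on bone marrow-derived macrophages (BMDMs), which are macrophages grown from marrow in culture, of mice that lack the cytokine IL-10 (Il10-/-, C57BL/6J background). All 6 groups carry this deletion, so the 2 groups that received IL-10 were given from outside what the cells cannot make. Cells were left unstimulated, were given JQ1 at 500 nM or were given IL-10 at 10 ng/mL for 12 hours, and for a further 4 hours they had either buffer (the Unstimulated, JQ1 and IL-10 groups) or lipopolysaccharide (LPS), a bacterial cell wall component, at 50 ng/mL, which gave the groups named LPS, LPS + JQ1 and, where IL-10 came first, LPS + IL-10. Each group held 3 libraries, from marrow cultures of 3 male mice of 12 weeks, and no label ties a library to its mouse. The libraries held between 6781952 and 28289498 expected counts, the lowest being Unstimulated replicate 2, and 2 libraries stood apart from their groups. LPS replicate 3 differed from LPS replicates 1 and 2 by a chi-square per degree of freedom of 24.2 and 28.3, against 4.59 between those, and LPS + IL-10 replicate 3 from replicates 1 and 2 by 28.0 and 26.9, against 10.5, while pairs in the other 4 groups lay between 3.98 and 10.1. Calls that change without either library are given beside the result. The macrophage genes Csf1r, Adgre1, Cd68, Itgam, Lyz2 and Mertk were present in all 18. The summed level of these 6 genes was 22362 to 23962 TPM (a relative level per length that sums to the same total in every library) in unstimulated cells, 28145 to 28282 with JQ1 and 22463 to 23784 with IL-10, and 12519 to 13664 with LPS, 17912 to 20514 with LPS + JQ1 and 13113 to 14384 with LPS + IL-10, whereas the T cell, B cell, neutrophil and epithelial lists summed to at most 0.32, 0.84, 2.47 and 0.15 TPM and the fibroblast list to 1.80 to 9.77 TPM. The part of this shift of macrophage genes in the results was not tested, and in such bulk RNA fewer cells and less RNA per cell cannot be told apart.

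The 9 genes lie on 7 chromosomes of the mouse build mm9. Brd2 occupies chromosome 17, 34248965 to 34259262, on the minus strand, and Brd3 chromosome 2, 27301099 to 27363182, also on the minus strand, and both have 3 annotated transcripts in the quantification. Cdk9 (chromosome 2, 32561304 to 32568596, minus strand), Ccnt1 (chromosome 15, 98369120 to 98401354, minus strand) and Ccnt2 (chromosome 1, 129670741 to 129704638, plus strand) encode the kinase and its cyclins. Aff4 lies at chromosome 11, 53164335 to 53235332, on the plus strand, and Hexim1 on the same chromosome and strand at 102977639 to 102981039. Larp7 (chromosome 3, 127239872 to 127256266, minus strand) and Mepce (chromosome 5, 138223134 to 138227943, minus strand) encode the RNA-binding and capping members of the 7SK particle. Ccnt1 shares 695 exon bases with the antisense gene 9330020H09Rik in the annotation used for positions. Counting was run with settings that do not use strand, so reads counted in that stretch could come from either gene. The expected counts of Ccnt1 were whole in all 18 libraries. This cannot settle the point, because reads are divided only among genes that the quantification holds. Whether it holds 9330020H09Rik was not checked. A further 2 annotated microRNA genes share 82 and 73 exon bases with Cdk9 on its own strand, and the microRNA and small nuclear RNA genes inside Larp7 and Aff4 lie in introns.

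The sequences around the transcription start of Hexim1, Brd2 and Larp7 are shown because Hexim1 and Brd2 rose most with JQ1 and Larp7 fell. Each is the RefSeq window of 250 bases before to 50 bases after a start (build GRCm38.p6, 5′ to 3′ on the strand of the gene), and capitals mark 3 motifs on either strand, the CCAAT box, the GC box with the letters GGGCGG and the cyclic AMP response element, spelled TGACGTCA. Hexim1 lies at chr11:103116075-103116374 (plus strand), the 3 Brd2 starts at chr17:34119851-34120150, chr17:34121698-34121997 and chr17:34122558-34122857 (minus strand), and Larp7 at chr3:127553300-127553599 (minus strand).
Hexim1: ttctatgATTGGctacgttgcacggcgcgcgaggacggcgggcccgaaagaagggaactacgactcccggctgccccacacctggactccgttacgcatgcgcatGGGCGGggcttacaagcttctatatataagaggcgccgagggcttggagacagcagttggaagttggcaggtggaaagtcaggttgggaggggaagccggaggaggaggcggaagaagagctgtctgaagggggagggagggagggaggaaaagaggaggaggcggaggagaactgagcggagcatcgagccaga
Brd2 start 1: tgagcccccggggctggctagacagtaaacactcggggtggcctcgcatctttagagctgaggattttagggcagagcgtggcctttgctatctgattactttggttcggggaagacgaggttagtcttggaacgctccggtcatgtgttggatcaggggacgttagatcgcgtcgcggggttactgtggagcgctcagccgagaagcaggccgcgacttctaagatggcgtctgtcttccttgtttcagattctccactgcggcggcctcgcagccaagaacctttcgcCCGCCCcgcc
Brd2 start 2: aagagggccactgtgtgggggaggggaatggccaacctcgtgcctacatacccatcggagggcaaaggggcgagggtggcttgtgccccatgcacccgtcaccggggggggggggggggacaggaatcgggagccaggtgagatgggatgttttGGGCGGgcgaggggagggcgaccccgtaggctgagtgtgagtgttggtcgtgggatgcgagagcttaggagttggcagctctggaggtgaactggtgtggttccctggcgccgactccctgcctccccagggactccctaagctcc
Brd2 start 3: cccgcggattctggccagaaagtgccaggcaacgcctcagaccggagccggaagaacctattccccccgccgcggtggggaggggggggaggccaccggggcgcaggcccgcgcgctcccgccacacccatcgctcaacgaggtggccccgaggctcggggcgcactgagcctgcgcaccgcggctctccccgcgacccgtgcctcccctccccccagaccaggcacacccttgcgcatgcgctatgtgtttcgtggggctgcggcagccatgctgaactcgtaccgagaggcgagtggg
Larp7: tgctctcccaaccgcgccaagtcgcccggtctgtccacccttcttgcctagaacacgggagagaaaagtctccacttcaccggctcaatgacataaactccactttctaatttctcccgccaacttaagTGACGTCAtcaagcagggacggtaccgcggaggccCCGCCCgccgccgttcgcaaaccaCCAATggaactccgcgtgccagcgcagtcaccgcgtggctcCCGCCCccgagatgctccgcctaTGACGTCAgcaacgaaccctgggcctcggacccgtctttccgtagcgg

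The Hexim1 window held 1 CCAAT box and 1 GC box and had a GC content of 61.0%, against a median of 52.7% over the 32851 promoter windows of the same length. Larp7 held 2 copies of the cyclic AMP response element, which was found in 1.79% of all windows, together with 1 CCAAT box (in 37.4% of all windows) and 2 GC boxes (in 35.7%). Of the Brd2 windows, 2 held 1 GC box each, and the window of start 3, at a GC content of 72.3%, held none of the 6 motifs searched. The other motifs, searched on both strands, were the TATA box spelled TATAAA (in 13.6% of all windows), the E-box with the letters CACGTG (7.15%) and the AP-1 site written as TGANTCA (7.81%), and among the 10 windows of the 8 genes found in the table only Aff4 held any of them, with 1 E-box. No window was used for Mepce, and a match of letters describes the window and not the binding of a factor.

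Levels per length placed Brd2 first in all 6 groups, and the order of the other genes changed with the treatment. In unstimulated cells Brd2 was at 122 ± 4.81 TPM (SD, n = 3), followed by Cdk9 at 56.7 ± 0.716, Mepce at 33.1 ± 1.85, Hexim1 at 29.5 ± 1.64 and Aff4 at 27.0 ± 0.0208 TPM, with no overlap between neighbours. Larp7 (23.2 ± 1.86 TPM) overlapped Ccnt1 (20.4 ± 3.22), which overlapped Brd3 (18.6 ± 0.609), and Ccnt2 was lowest at 15.8 ± 0.941. The inhibitor gene Hexim1 thus ranked below the kinase gene Cdk9 in unstimulated cells. With JQ1, Hexim1 moved to second place at 115 ± 4.02 TPM and Larp7 to last at 13.0 ± 1.98, and with LPS Hexim1 stood second to last at 6.72 ± 0.366, just above Brd3 at 5.35 ± 0.219. In LPS + JQ1 cells Brd2 reached 1504 ± 97.1 TPM and Hexim1 87.3 ± 3.95 TPM, while Cdk9 (36.4 ± 0.161) and Mepce (35.7 ± 0.841) overlapped in the next places. All 9 genes together took 0.0899% to 0.0916% of the counts of a library in unstimulated cells, 0.202% to 0.204% with JQ1, 0.0984% to 0.105% with LPS and 0.440% to 0.454% with LPS + JQ1.

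**Figure D1:**
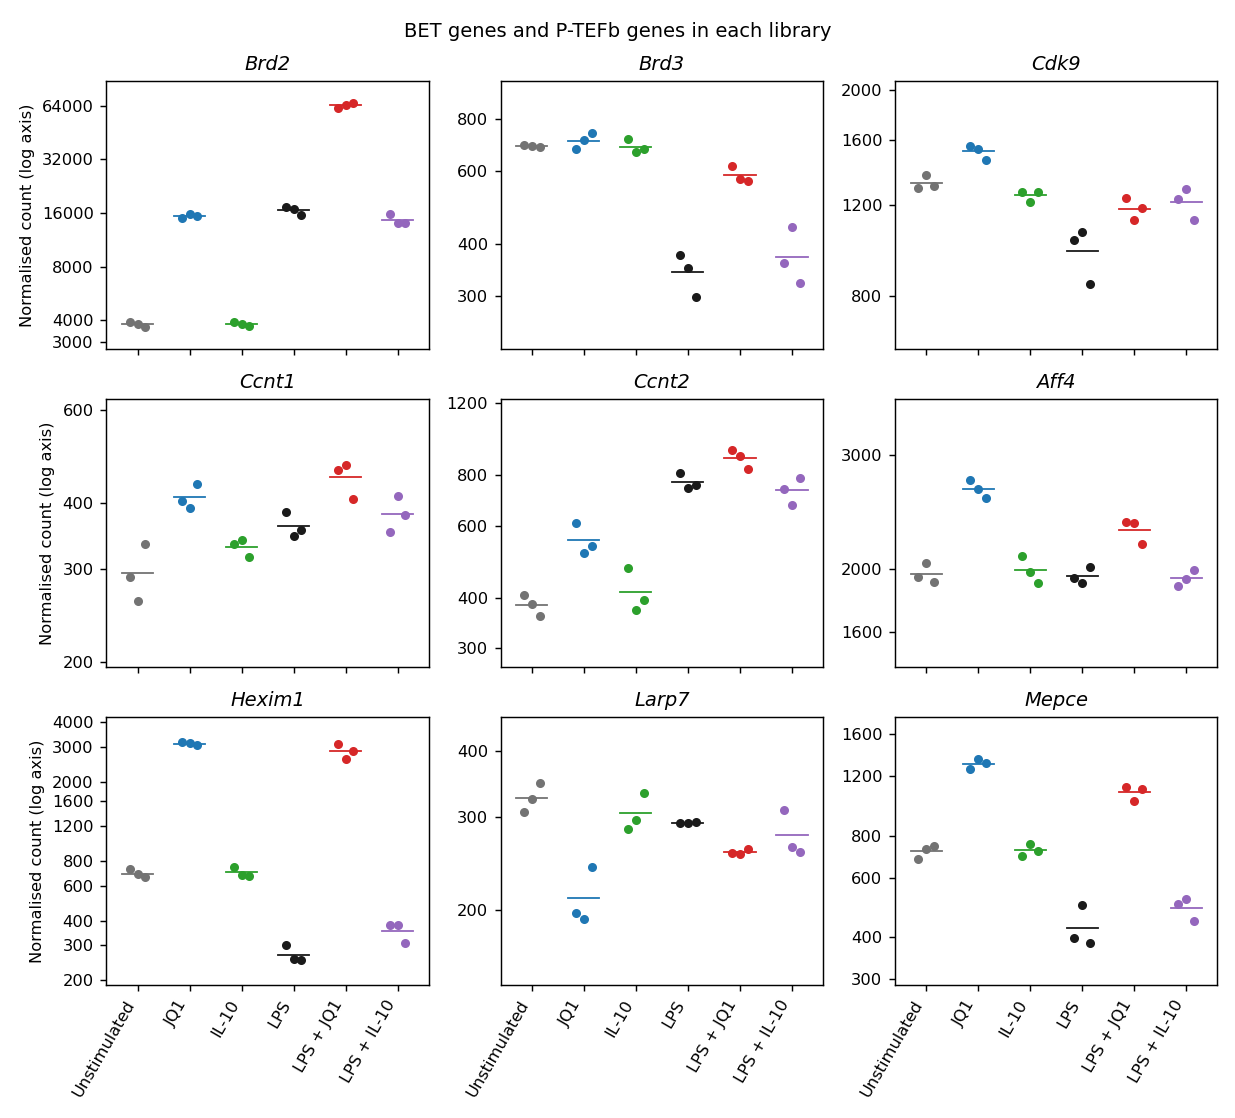
Normalised count (log axis, each panel with its own range) of the 9 genes in the 18 libraries, by group; points are libraries, in the order of replicates 1 to 3, and lines are group means. Brd2 sits between 62347 and 65932 in LPS + JQ1 cells, above all other libraries, and Hexim1 is high in both JQ1 groups and lowest with LPS.

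JQ1 without LPS raised 7 of the 9 genes and lowered 1 (adjusted p under 0.05 in the DESeq2 Wald test). Hexim1 rose 4.50-fold, Brd2 4.02-fold and Mepce 1.82-fold, Ccnt2, Ccnt1, Aff4 and Cdk9 rose 1.15- to 1.45-fold, whereas Larp7 fell and Brd3 did not pass the test. Over all 14006 genes tested, 44.4% were called, 21.3% higher and 23.1% lower, and of the calls 48.0% were higher, or 26.7% under scaling by total counts. The median log2 fold change was 0.46 over the 9 genes and -0.00 over all genes tested.

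Of the BET genes, Brd2 rose with JQ1 without LPS and Brd3 did not pass the test. Brd2 had normalised counts of 3927, 3822 and 3682 in unstimulated replicates 1, 2 and 3 and of 14890, 15673 and 15385 with JQ1. The groups lay far apart, and the log2 fold change was 2.01 (SE 0.058), the tenth largest rise among the 8370 tested genes whose normalised counts averaged 100 or more. Brd3, a BET protein of the same domain plan, had 690, 688 and 684 without JQ1 and 677, 713 and 739 with it. These ranges overlap, and its log2 fold change was 0.05 (95% interval -0.14 to 0.23, adjusted p = 0.737), with the sign turned to -0.13 under scaling by total counts.

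The genes of the 7SK particle moved in both directions. Hexim1 went from 724, 685 and 660 normalised counts to 3157, 3116 and 3038 with JQ1, a log2 fold change of 2.17 (SE 0.089) and the eighth largest rise among those 8370 genes. Mepce went from 683, 727 and 744 to 1264, 1350 and 1317 (0.87, SE 0.087). Larp7 moved the other way, from 307, 325 and 348 to 197, 192 and 242, with no overlap and a log2 fold change of -0.64 (SE 0.11, adjusted p = 1.292e-07). The RNA of the particle itself, 7SK, was looked for as Rn7sk and not found among the genes quantified, so it was not analysed here.

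The kinase gene and its partners rose by smaller amounts. Ccnt2 had 405, 386 and 360 normalised counts without JQ1 and 611, 515 and 535 with it (log2 fold change 0.53, SE 0.11), and Ccnt1 had 289, 260 and 335 against 403, 392 and 435 (0.46, SE 0.10). On the log2(TPM + 1) scale Ccnt1 was at 0.27 and missed the threshold (limma, adjusted p = 0.0729), and under scaling by total counts it was at 0.28 and passed. The scaffold gene Aff4 rose from 1945, 2045 and 1913 to 2749, 2664 and 2574 (0.44, SE 0.056), or by 0.26 under scaling by total counts. Cdk9 was the weakest call, at 1291, 1373 and 1304 against 1563, 1537 and 1467 (0.21, SE 0.079, adjusted p = 0.0234). It missed the threshold in edgeR (adjusted p = 0.0719), was at 0.03 and missed it under scaling by total counts (adjusted p = 0.818), was at -0.00 on the log2(TPM + 1) scale, and also missed it without any one of JQ1 replicates 1 and 2 and Unstimulated replicates 1 and 3 (adjusted p 0.0659 to 0.0957).

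During LPS, JQ1 raised 7 of the 9 genes and lowered none. The rise of Hexim1 was 10.6-fold, that of Brd2 3.89-fold, that of Mepce 2.51-fold and that of Brd3 1.71-fold, while Ccnt1, Cdk9 and Aff4 rose 1.18- to 1.24-fold. Over all 14326 genes tested 57.3% were called, 24.4% higher and 32.9% lower, and of the calls 42.5% were higher, or 64.85% under scaling by total counts. The median log2 fold change was 0.31 over the 9 genes and -0.11 over all genes tested.

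Brd2 was the most abundant of these transcripts with LPS and rose further with JQ1. It had 17219, 16759 and 15551 normalised counts in LPS cells and 62347, 64225 and 65932 in LPS + JQ1 cells, a log2 fold change of 1.96 (SE 0.056). Brd3 went from 378, 351 and 300 to 616, 573 and 566, with no overlap (0.78, SE 0.10, adjusted p = 2.076e-13). Both BET genes were therefore higher with JQ1 during LPS.

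Hexim1 was low in LPS cells, at 301, 256 and 253 normalised counts, and stood at 3098, 2591 and 2835 in LPS + JQ1 cells. The log2 fold change of 3.40 (SE 0.10) was the 12th largest rise among the 8370 genes, against rank 150 for Brd2. Mepce went from 397, 497 and 383 to 1112, 1011 and 1102 (1.33, SE 0.093). Larp7 stayed in a narrow band, 293, 293 and 293 with LPS and 256, 256 and 261 with LPS + JQ1. These ranges did not overlap, but the log2 fold change of -0.19 (95% interval -0.41 to 0.04) did not pass the test (adjusted p = 0.169) and had the opposite sign under scaling by total counts (0.19).

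Among the P-TEFb genes during LPS, Cdk9 went from 1027, 1063 and 842 normalised counts to 1235, 1124 and 1182 (log2 fold change 0.27, SE 0.083). Ccnt1 went from 385, 346 and 356 to 463, 473 and 407 (0.31, SE 0.10), and Aff4 from 1940, 1906 and 2014 to 2363, 2360 and 2184 (0.24, SE 0.057). All 3 pairs of ranges lay apart. Without LPS replicate 3 Cdk9 was at 0.17 (adjusted p = 0.0394), and under scaling by total counts Cdk9, Ccnt1 and Aff4 were at 0.65, 0.69 and 0.61. Ccnt2 had 809, 743 and 756 with LPS and 922, 892 and 826 with LPS + JQ1, and its log2 fold change of 0.20 (95% interval -0.01 to 0.40) missed the threshold (adjusted p = 0.0903). With the replicate number as a block it passed (0.19, adjusted p = 0.0406), and it also passed under scaling by total counts (0.57) and by TMM factors (0.31), so whether Ccnt2 is counted depends on the setting.

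**Figure D2:**
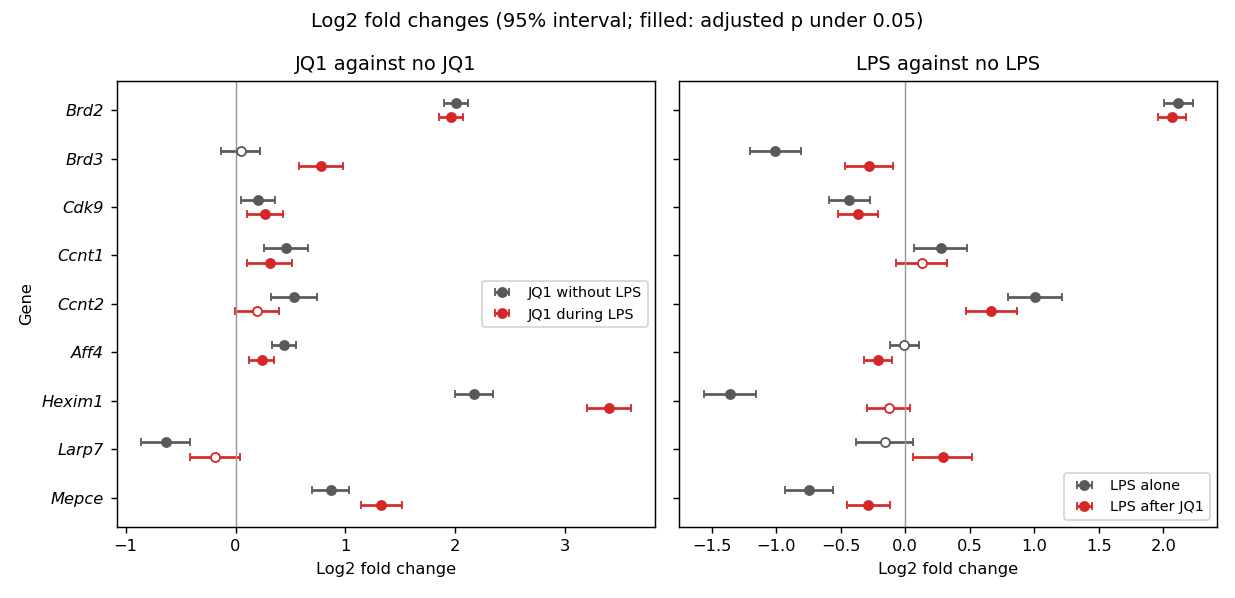
Log2 fold change (horizontal axis) with its 95% interval for the 9 genes (vertical axis), with JQ1 on the left and with LPS on the right; grey points are the comparison without the other agent, red points the one with it, and filled points passed the test. Hexim1 shifts from 2.17 to 3.40 with JQ1 and from -1.36 to -0.13 with LPS, while the 2 points of Brd2 lie close together in both panels; under scaling by total counts Hexim1 is at -2.29 and -0.50 and Brd2 at 1.19 and 1.69 with LPS.

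LPS alone raised 3 of the 9 genes, lowered 4 and left 2 below the threshold. Brd2 rose 4.33-fold and Ccnt2 2.01-fold, Ccnt1 1.21-fold, Hexim1 fell 2.56-fold, Brd3 2.01-fold, Mepce 1.68-fold and Cdk9 1.35-fold, and Aff4 and Larp7 did not pass the test. Over all 15285 genes tested, 63.1% were called, 30.8% higher and 32.2% lower, and of the calls 48.9% were higher, or 20.05% under scaling by total counts, which moved the median log2 fold change of all genes tested from -0.06 to -1.01. The median over the 9 genes was -0.16.

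Brd2 had 17219, 16759 and 15551 normalised counts with LPS, against 3682 to 3927 in unstimulated cells (log2 fold change 2.12, SE 0.058). Its rise was smaller under scaling by total counts (1.19) and on the log2(TPM + 1) scale (1.34), and past the threshold in both. Brd3 went the other way, to 300 to 378 from 684 to 690 (-1.01, SE 0.10). Hexim1 fell to 253 to 301 from 660 to 724 (-1.36, SE 0.10), and Mepce to 383 to 497 from 683 to 744 (-0.75, SE 0.095). None of these pairs of ranges overlapped. Cdk9 fell by 0.43 on the log2 scale (SE 0.082), and these 4 genes also fell relative to the shifted median under scaling by total counts, where they lay between -2.29 and -1.36, past the threshold. Ccnt2, a cyclin partner of CDK9, rose to 743 to 809 from 360 to 405 (1.00, SE 0.11), and under scaling by total counts it stood at 0.08, above the median of -1.01 but not past the threshold (adjusted p = 0.558). The rise of Ccnt1 (0.27, SE 0.11, adjusted p = 0.0169) turned to -0.65 under that scaling, past the threshold, and missed the threshold with TMM factors (0.20), in edgeR (0.20) and without LPS replicate 1 (0.24) or without Unstimulated replicate 1 (0.25) or 2 (0.21). Aff4 was at -0.01 (95% interval -0.12 to 0.11) and Larp7 at -0.16 (-0.38 to 0.06), and under scaling by total counts at -0.93 and -1.09, both past the threshold and within 0.1 of the shifted median.

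LPS given after JQ1 likewise raised 3 genes and lowered 4. Brd2 rose by 2.07 (SE 0.056), Ccnt2 by 0.67 (SE 0.10) and Larp7 by 0.29 (SE 0.12, adjusted p = 0.0241) on the log2 scale, while Cdk9 (-0.37, SE 0.080), Mepce (-0.29, SE 0.085), Brd3 (-0.28, SE 0.094) and Aff4 (-0.21, SE 0.056) fell. In edgeR the falls of Brd3 (-0.23, adjusted p = 0.0525) and Aff4 (-0.16, adjusted p = 0.0693) missed the threshold, while under scaling by total counts, which moved the median over all genes tested from -0.08 to -0.46, the falls of Cdk9, Mepce, Brd3 and Aff4 were at -0.74 to -0.58 and the rise of Ccnt2 at 0.29. Hexim1, at 3038 to 3157 normalised counts with JQ1 and 2591 to 3098 with LPS + JQ1, was at -0.13 (95% interval -0.29 to 0.04, adjusted p = 0.195), and Ccnt1 at 0.13 (-0.07 to 0.32). Hexim1 was called lower under scaling by total counts (-0.50, adjusted p = 4.892e-09) and on the log2(TPM + 1) scale (limma, -0.39, adjusted p = 0.000119), and Ccnt1 under scaling by total counts (-0.25, adjusted p = 0.0388). The rise of Larp7 missed the threshold without any one of JQ1 replicates 1 and 2 and LPS + JQ1 replicates 1, 2 and 3 (adjusted p 0.0529 to 0.124), and it turned to -0.08 under scaling by total counts and was at 0.03 on the log2(TPM + 1) scale. Of 14006 genes tested, 57.1% were called, 27.0% higher and 30.2% lower, and of the calls 47.2% were higher, or 25.65% under that scaling. The comparisons with JQ1 and those with LPS share their libraries, so they are not independent of each other.

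Whether the effect of JQ1 differed with and without LPS was tested as an interaction, the log2 fold change during LPS minus that without LPS. It was called for 5 of the 9 genes, 4 higher and 1 lower, where 40.3% of 13046 genes tested were called, 17.2% higher and 23.1% lower. The largest was Hexim1 at 1.23 (SE 0.13, adjusted p = 1.522e-18), followed by Brd3 at 0.73 (SE 0.14), Mepce at 0.46 (SE 0.13) and Larp7 at 0.45 (SE 0.16, adjusted p = 0.0163). Under scaling by total counts these 4 were at 1.78, 1.28, 1.01 and 1.01. In each of Hexim1, Brd3 and Mepce the level in LPS + JQ1 cells was closer, on the log2 scale, to that in JQ1 cells than the level in LPS cells was to that in unstimulated cells. For Larp7 the call was lost without any one of JQ1 replicates 1 and 2 and Unstimulated replicate 3 (adjusted p 0.0579 to 0.0610).

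Scaling decided the sign of several smaller interactions. The call of Aff4 (-0.20, SE 0.080, adjusted p = 0.0312) turned to 0.35 under scaling by total counts and missed the threshold with TMM factors (-0.07), in edgeR (-0.07) and without any one of JQ1 replicates 1 and 2, LPS + JQ1 replicate 3, LPS replicates 1 and 3 and Unstimulated replicates 1 and 3 (-0.20 to -0.17). Brd2 was at -0.05 (95% interval -0.21 to 0.11, adjusted p = 0.675), but at 0.51 under scaling by total counts and 0.46 on the log2(TPM + 1) scale, both past the threshold, and that scaling moved the median over all genes tested from -0.05 to 0.51. Ccnt2 was at -0.34 (SE 0.15) and missed the threshold (adjusted p = 0.0550), with the replicate block it passed (adjusted p = 0.0176), and under scaling by total counts it stood at 0.22, and Ccnt1 (-0.15) and Cdk9 (0.07) did not pass. Under scaling by total counts Ccnt1 was at 0.41 (adjusted p = 0.0217) and Cdk9 at 0.62 (adjusted p = 2.403e-07), both past the threshold, as was Cdk9 on the log2(TPM + 1) scale (limma, 0.57, adjusted p = 6.327e-05). Of the calls over all genes 42.7% were higher, against 85.5% under scaling by total counts and 54.7% with TMM factors.

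Ratios of TPM within a library do not depend on the scaling between libraries. The ratio of Hexim1, the inhibitor, to Cdk9, the kinase, was 0.558, 0.497 and 0.505 in unstimulated replicates 1, 2 and 3, and 2.01, 2.02 and 2.06 with JQ1. It was 0.293, 0.240 and 0.299 with LPS and 2.50, 2.30 and 2.39 with LPS + JQ1. The ratio was thus under 1 in all 6 libraries without JQ1 and above 2 in all 6 with it, a mean log2 difference of 2.54 (exact two-sided permutation test with JQ1 labels permuted within stimulation, p = 0.005, the smallest that 400 arrangements allow, 0.0075 after adjustment over 6 such tests). The ratios here and below use the same libraries as the tests of single genes, and the genes were chosen with earlier results known. Their p-values therefore add no independent evidence to those calls.

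Hexim1 to Larp7, both of the 7SK particle, showed a wider gap. Their ratio was 1.28 ± 0.136 (SD, n = 3) in unstimulated cells, 8.97 ± 1.21 with JQ1, 0.555 ± 0.0547 with LPS and 6.64 ± 0.587 with LPS + JQ1, a mean log2 difference with JQ1 of 3.20 (exact permutation p = 0.005). Brd2 to Brd3 rose with both agents, from 6.59 ± 0.185 to 25.9 ± 0.797 with JQ1, to 58.5 ± 3.65 with LPS and to 132 ± 9.67 with LPS + JQ1 (mean log2 difference with JQ1 1.58, exact permutation p = 0.005). The balance of the cyclins separated by LPS, with no detectable difference by JQ1. Ccnt1 to Ccnt2 was 1.30 ± 0.228 in unstimulated cells and 1.25 ± 0.130 with JQ1, and 0.788 ± 0.00982 with LPS and 0.851 ± 0.0325 with LPS + JQ1, a mean log2 difference with JQ1 of 0.03 (exact permutation p = 0.73). Of these 12 libraries, the 6 without LPS lay between 1.11 and 1.56 and the 6 with it between 0.779 and 0.887, a difference that was not tested.

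**Figure D3:**
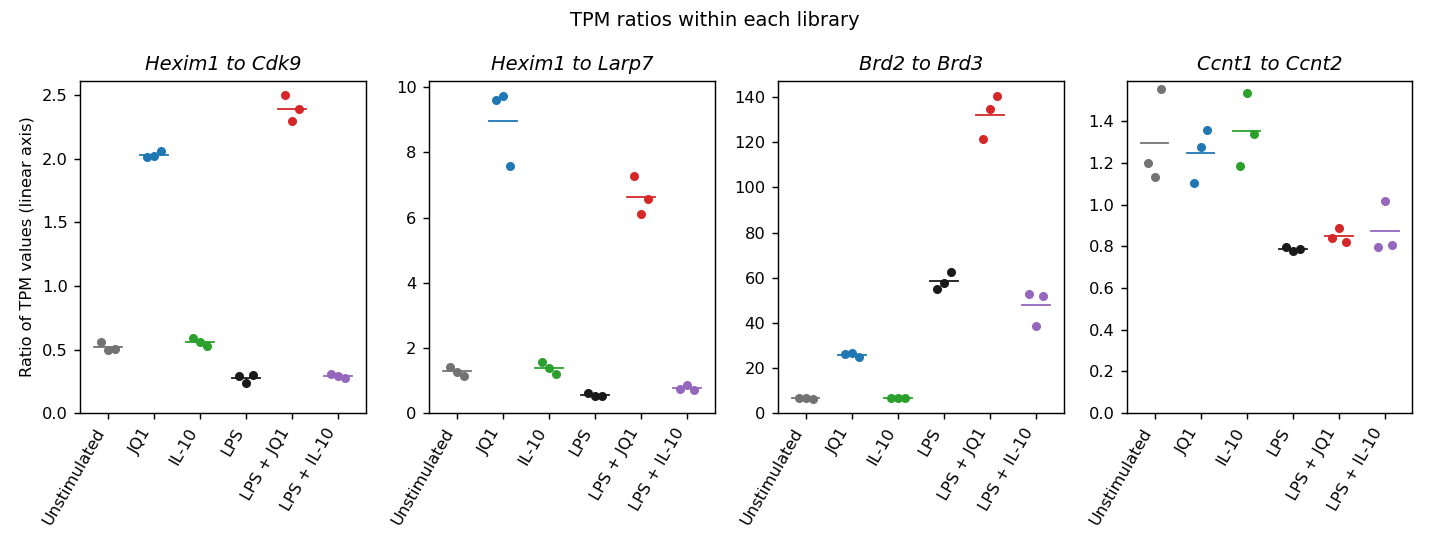
Ratio of TPM values of a pair of genes within each library (linear axis from 0, one panel per pair), by group; points are libraries and lines group means. Hexim1 to Cdk9 lies above 2 in the 6 libraries with JQ1 and at 0.588 or less in the other 12, and Ccnt1 to Ccnt2 separates by LPS.

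The files also give the mean length of the transcripts of a gene, weighted by their estimated abundance, which can move only for Brd2 and Brd3 since the other 7 genes had 1 annotated transcript. Brd2 had a weighted length of 4461, 4459 and 4457 bases in unstimulated replicates 1, 2 and 3 and of 4429, 4413 and 4412 bases with JQ1. With LPS it was already at 4406 to 4420 bases, and with LPS + JQ1 at 4400 to 4418. The mean difference with JQ1 was -22.2 bases, made up of -40.9 without LPS and -3.49 during LPS (exact permutation p = 0.025, 0.03 adjusted). It did not pass with the effective length (-21.8 bases, exact permutation p = 0.06) or with differences taken within same-numbered libraries (exact permutation p = 0.09375, where the smallest possible is 0.03125).

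Brd3 had a weighted length of 5262 to 5271 bases in unstimulated cells, 5261.5 to 5262.1 with JQ1, 5273 to 5312 with LPS and 5264 to 5270 with LPS + JQ1. The mean difference with JQ1 was -13.2 bases, made up of -3.76 without LPS and -22.7 during LPS (exact permutation p = 0.005, 0.0075 adjusted). LPS replicate 1, at 5312 bases, stood apart from the others, and without it, an alternative chosen after seeing the data, the difference was -11.6 bases during LPS and -7.70 over both (exact permutation p = 0.005, the smallest that 200 arrangements allow). With the effective length the difference was -12.8 bases and did not pass (exact permutation p = 0.08). These shifts amount to under 1% of the length, and they rest on RSEM's division of reads among transcripts.

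**Figure D4:**
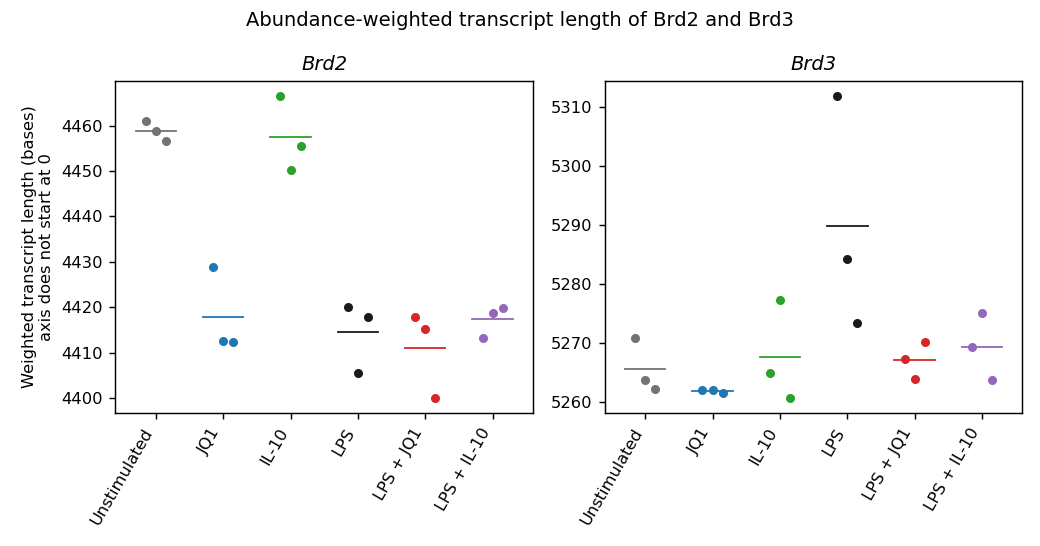
Abundance-weighted transcript length in bases (the axes do not start at 0) of Brd2 and Brd3 in each library, by group; points are libraries and lines group means. Brd2 lies between 4450 and 4467 bases in the unstimulated and IL-10 groups and between 4400 and 4429 bases in the other 4 groups.

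IL-10 without LPS changed none of the 9 genes by the DESeq2 test, and none had an unadjusted p under 0.05 by DESeq2, by edgeR or by limma on log2(TPM + 1). Over all 9211 genes tested 3.96% were called, 2.5% higher and 1.47% lower. The log2 fold changes ran from -0.11 for Larp7 (95% interval -0.32 to 0.10) to 0.15 for Ccnt1 (-0.05 to 0.34). Brd2, at 3711 to 3892 normalised counts, and Hexim1, at 670 to 748, overlapped with unstimulated cells.

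During LPS, IL-10 raised Hexim1 and Cdk9 and lowered Brd2, 3 of the 9 genes, where 15.7% of 12407 genes tested were called, 7.67% higher and 8.02% lower, and 48.9% of the calls were higher, or 71.1% under scaling by total counts. Hexim1 had 380, 379 and 307 normalised counts with LPS + IL-10, above the 253 to 301 with LPS (log2 fold change 0.39, SE 0.11, adjusted p = 0.00453). Cdk9 had 1234, 1288 and 1121, above the 842 to 1063 with LPS (0.31, SE 0.083, adjusted p = 0.00226). Brd2 had 15801, 14103 and 13987, a range that overlaps the 15551 to 17219 with LPS, and its log2 fold change of -0.17 (SE 0.057, adjusted p = 0.0167) missed the threshold under scaling by total counts (-0.08), in edgeR (-0.16) and without any one of LPS replicates 1 and 2 and LPS + IL-10 replicates 2 and 3 (adjusted p 0.0848 to 0.128). In a fit of these 2 groups alone none of the 3 genes passed (adjusted p 0.130 to 0.526). Mepce was at 0.18 and missed the threshold (adjusted p = 0.2485). It passed under scaling by total counts (0.27, adjusted p = 0.0295) and on the log2(TPM + 1) scale (limma, 0.29, adjusted p = 0.0225). Without LPS replicate 2 it also passed (0.32, adjusted p = 0.0164).

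The effect of IL-10 differed with and without LPS for Cdk9 (0.39, SE 0.11, adjusted p = 0.0154), 1 of the 9 genes, where 6.6% of 12087 genes tested were called, 3.57% higher and 3.03% lower. Hexim1 had a similar interaction (0.37, SE 0.14) that missed the threshold (adjusted p = 0.120) and passed with the replicate block (adjusted p = 0.0419) and without LPS + IL-10 replicate 3 (0.48, adjusted p = 0.0151). Of the calls over all genes 54.1% were higher, or 73.7% under scaling by total counts. The Cdk9 call was lost in edgeR (adjusted p = 0.0637), with only the groups compared (adjusted p = 0.0751) and without any one of IL-10 replicate 2, LPS replicate 3, LPS + IL-10 replicate 2 and Unstimulated replicate 2 (adjusted p 0.0526 to 0.0772).

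JQ1 and IL-10 were also set against each other in LPS-stimulated cells. Relative to LPS + IL-10, LPS + JQ1 cells had higher levels of 7 of the 9 genes and lower levels of none, where 55.3% of 14326 genes tested were called, 23.8% higher and 31.6% lower, and 42.9% of the calls were higher, or 61.25% under scaling by total counts. Hexim1 differed by 3.01 (SE 0.097), Brd2 by 2.13 (SE 0.056), Mepce by 1.15 (SE 0.092) and Brd3 by 0.66 (SE 0.10) on the log2 scale. Aff4 (0.25, SE 0.058), Ccnt2 (0.26, SE 0.10) and Ccnt1 (0.24, SE 0.10, adjusted p = 0.0405) differed less, and with the replicate block Ccnt1 missed the threshold (adjusted p = 0.0524). Without any one of LPS + IL-10 replicates 1 and 3 and LPS + JQ1 replicates 1 and 2 the Ccnt1 call was lost (adjusted p 0.0997 to 0.180), and without any one of LPS + IL-10 replicates 1 and 2 and LPS + JQ1 replicates 1 and 2 that of Ccnt2 was lost (adjusted p 0.0563 to 0.118). Under scaling by total counts Aff4, Ccnt2 and Ccnt1 were at 0.53, 0.54 and 0.52, all past the threshold. Cdk9, which both agents raised against LPS in the fit of all libraries, was at -0.04 between them (95% interval -0.20 to 0.12), or at 0.24 and past the threshold under scaling by total counts. In a fit of the LPS and LPS + IL-10 groups alone, its rise with IL-10 missed the threshold (0.32, adjusted p = 0.139). Larp7 was at -0.10 (-0.33 to 0.13), or at 0.18 under scaling by total counts.

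Beside the 9 genes, 35 other genes of transcription elongation and the 7SK particle and 34 other genes with bromodomains were read from lists. The first list, called elongation genes below, also includes Brdt, the gene of another BET protein. Of the elongation genes, 11 of 34 tested were higher and 3 lower with JQ1 without LPS, and 14 of 35 were higher and 10 lower with JQ1 during LPS, with median log2 fold changes of 0.08 and 0.03. Over all genes tested the shares were 21.3% higher and 23.1% lower without LPS and 24.4% and 32.9% during LPS. Of the 34 bromodomain genes, 9 were higher and 10 lower with JQ1 without LPS, and 6 were higher and 21 lower during LPS, with medians of 0.08 and -0.44. With LPS alone 19 of 35 elongation genes were called higher and 7 lower, and 21 of 34 bromodomain genes higher and 8 lower, where 30.8% of all genes tested were higher and 32.2% lower. The medians over all genes tested in these 3 comparisons were -0.00, -0.11 and -0.06. These splits depend on the scaling, like those over all genes. Under scaling by total counts, the elongation genes were called 8 higher and 11 lower with JQ1 without LPS, 18 and 6 with JQ1 during LPS and 4 and 24 with LPS alone, and the bromodomain genes 4 and 12, 11 and 12, and 8 and 21.

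Of the called elongation genes whose normalised counts averaged 100 or more, those with the largest rises with JQ1 during LPS were Ell (log2 fold change 1.99, SE 0.16), an elongation factor of the super elongation complex, and Ctr9 (1.56, SE 0.069) and Paf1 (1.07, SE 0.093), subunits of the PAF1 complex that travels with RNA polymerase II. Ell, like Hexim1, was lowest with LPS, at 366, 467 and 393 normalised counts in unstimulated cells, 84.8, 87.9 and 77.4 with LPS and 342, 318 and 337 with LPS + JQ1. Its paralog Ell2 went the other way, at 1593 to 1956 in unstimulated cells, 7742 to 8648 with LPS and 4184 to 4583 with LPS + JQ1 (-0.89, SE 0.10). Jmjd6 (-0.88, SE 0.12), a JmjC-domain protein, and Ssrp1 (-0.83, SE 0.080), a subunit of the histone chaperone FACT, were also lower. By the same limit on counts, Trim24 (1.49, SE 0.15), Atad2 (1.34, SE 0.20) and Trim33 (0.65, SE 0.10) were higher and Kat2b (-1.45, SE 0.094), Brd9 (-1.34, SE 0.11) and Phip (-1.14, SE 0.17) lower among the other bromodomain genes. The rise of Hexim1 during LPS (3.40) was larger than that of any gene on either list, where the highest values were 3.09 and 1.49. The value of 3.09 belonged to an elongation gene that was not called or whose normalised counts averaged under 100.

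**Figure D5:**
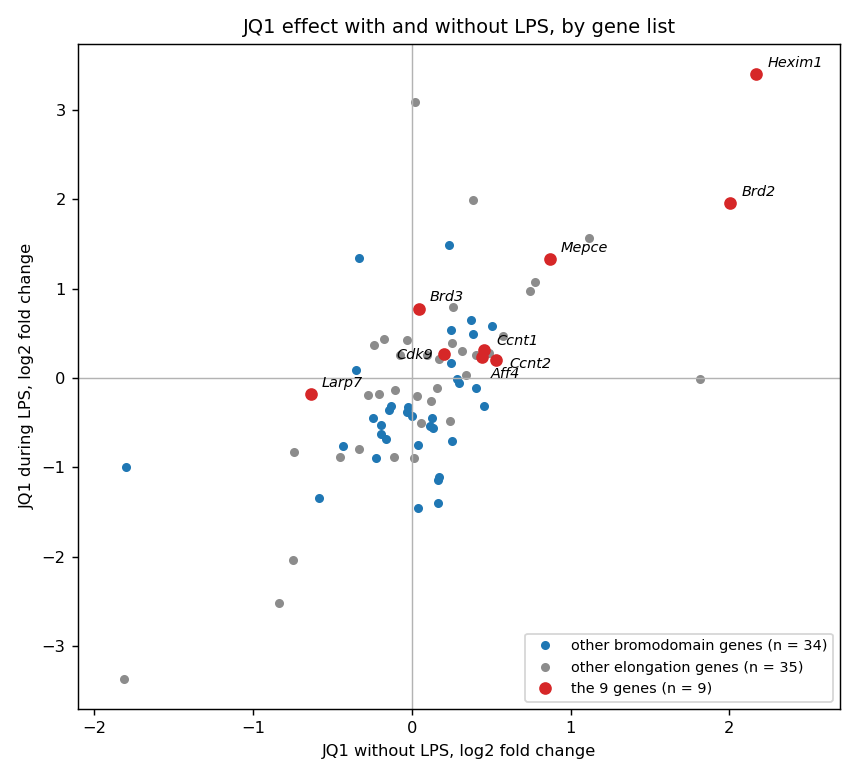
Log2 fold change with JQ1 without LPS (horizontal axis) against that during LPS (vertical axis) for the 9 genes (red, named), 35 other elongation genes (grey, 1 of them not tested without LPS) and 34 other bromodomain genes (blue). Hexim1 at 2.17 and 3.40 and Brd2 at 2.01 and 1.96 stand at the upper right, and 21 of the bromodomain genes were called lower during LPS (12 under scaling by total counts).

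The genes whose pattern was most like that of a member were sought over the 18 libraries among 8378 genes whose normalised counts averaged 100 or more, by the Pearson correlation of log2(normalised count + 1), given as a description with no test since libraries of a group share their treatment. For Brd2 they were Kctd12 (r = 0.990), Fryl (0.985) and Fkbp5 (0.985), and Kctd12 had mean normalised counts of 3480 in unstimulated cells, 17154 with JQ1, 18849 with LPS and 90077 with LPS + JQ1. For Hexim1 they were Trrap (0.989), Uhrf1bp1 (0.986) and Pdia4 (0.985), and for Brd3 they included Nosip (0.988) and Map3k14 (0.986). Map3k14, which encodes the kinase NIK of noncanonical NF-kB signalling, fell from a mean of 524 to 63.0 with LPS and stood at 378 with LPS + JQ1, as Brd3 stood between its LPS and unstimulated levels. For Larp7 the nearest were Lmna (0.916), Cep152 (0.880) and Exd2 (0.869), and Lmna, the gene of the nuclear lamins A and C, had means of 3421 in unstimulated cells, 1499 with JQ1, 2841 with LPS and 2055 with LPS + JQ1.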

How the data were processed

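Libraries were stranded and depleted of ribosomal RNA, and the authors took the read pairs through TagDust, STAR (mouse build mm9) and RSEM 1.2.31, left at its defaults. The deposited expected counts estimate the reads of each gene and can be fractional (5.40% to 6.63% of genes per library), although those of all 9 genes were whole in all 18 libraries, and the deposited TPM values are the authors' relative abundances per length. The deposited lengths and effective lengths, other values per gene in bases, were used as a readout and as an offset, and FPKM values were not used.

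Groups and replicate numbers came from the sample titles. Cells given neither agent are untreated per the labels. The study's methods name a vehicle in this step for cells that then had LPS. They describe the untreated, unstimulated cells separately, as a further control with no vehicle named. JQ1 without LPS, IL-10 without LPS, LPS alone and both interactions use the Unstimulated group. Any part of a vehicle in these comparisons was not tested. Expected counts were rounded and tested with the Wald test of DESeq2 1.42.0 (R 4.3.3), as in the study, fitted to the 18 libraries with a term for group alone, size factors by the median of ratios, and independent filtering as by default. A gene was called when its p, adjusted by Benjamini-Hochberg over all genes tested, was under 0.05. Normalised counts are counts divided by the size factors, and fold changes of counts carry no pseudocount. The exact permutation tests were two-sided. With 3 libraries against 3 such a test could not go below 0.1, so unstimulated and LPS-stimulated libraries were tested together, which allows 0.005. The tests were run on simulated data before use.

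Alternatives were a replicate block, lane as a covariate, TMM factors, scaling by total counts, the edgeR 4.0.16 quasi-likelihood test, limma 3.58.1 on log2(TPM + 1) and log2(TPM + 0.1), a filter of at least 10 counts in 3 libraries, no independent filtering, an effective-length offset, only the groups compared, and each library left out. The Brd3 length without LPS replicate 1 was added after the data were seen. Where that left 2 libraries in a group, the spread was taken from all groups. The replicate block assumes that same-numbered libraries share a mouse: the labels speak of matched samples, and none names the mouse of a library. The deviations of same-numbered libraries from their group means had correlations between -0.293 and 0.726, below 0 for replicates 2 and 3 in JQ1 during LPS (-0.194 and -0.293) and in JQ1 against IL-10 (-0.222 and -0.284). All other correlations were above 0, among them those of IL-10 without LPS (0.269 to 0.458) and IL-10 during LPS (0.365 to 0.726). The main fit has no block. Lane 7 held all libraries of replicate 1 and lane 8 all of replicate 3, while the libraries of replicate 2 without LPS were on lane 7 and those with LPS on lane 8.

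Libraries held 6781952 to 28289498 expected counts, so 3 counts, taken as the lowest measurable level, came to 0.106 to 0.442 CPM. Such limits cover counting error only, because PCR copies of a molecule are not independent and no molecular identifiers are named. The lowest expected count of any of the 9 genes in any library was 154 (Ccnt1). Replicates of every group differed by more than sampling noise, by a chi-square test of their counts over genes. Positions are from GENCODE vM1 on mm9, and promoter windows, matched by symbol for 8 of 9 genes, from RefSeq on GRCm38.p6.

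The genes and gene lists were chosen with earlier results of these data known. All 9 genes are named in each comparison. Of the elongation and the bromodomain list, the 3 most raised and the 3 most lowered by JQ1 during LPS are named, among called genes whose normalised counts averaged 100 or more, and for each of Brd2, Brd3, Hexim1 and Larp7 the 3 genes most alike by correlation. A further gene that this rule names is not reported here.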

Additional observations from a re-analysis of the deposited data

Results flagged for a closer look

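The effect of JQ1 differed with and without LPS, by the interaction term of the DESeq2 fit of all 18 libraries, for 5 of the 9 genes. The differences in log2 fold change (during LPS minus without LPS) were 1.23 for Hexim1, 0.73 for Brd3, 0.46 for Mepce and 0.45 for Larp7, with adjusted p-values of 1.522e-18, 9.532e-07, 0.00121 and 0.0163. Hexim1 had a log2 fold change of 2.17 with JQ1 without LPS and of 3.40 during LPS, Brd3 of 0.05 and 0.78, Mepce of 0.87 and 1.33, and Larp7 of -0.64 and -0.19. The Larp7 call was lost without any one of JQ1 replicates 1 and 2 and Unstimulated replicate 3 (adjusted p 0.0579 to 0.0610). For Aff4 the difference was -0.20 (adjusted p = 0.0312), with log2 fold changes of 0.44 and 0.24, and its sign turned under scaling by total counts (0.35) and on the log2(TPM + 1) scale (0.29).

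The effect of IL-10 differed with and without LPS for Cdk9, at 0.39 (adjusted p = 0.0154), with log2 fold changes of -0.08 without LPS (95% interval -0.23 to 0.08) and 0.31 during LPS. This Cdk9 call was lost in edgeR (adjusted p = 0.0637) and with only the groups compared (adjusted p = 0.0751). It was also lost without any one of IL-10 replicate 2, LPS replicate 3, LPS + IL-10 replicate 2 and Unstimulated replicate 2 (adjusted p 0.0526 to 0.0772). Groups of 3 libraries are too small for a test of single outlying libraries.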

How the results depend on the processing

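Of the values of the 9 genes over all comparisons and alternatives, 1366 kept their side of the threshold, 65 no longer passed it, 37 newly passed it, and 17 passed under at least 1 of the settings compared and changed direction. Among the 1366 are 75 sign changes of values that passed under neither setting, 37 of them under other scalings or units, 25 with a library left out and 13 under other settings. The 17 were all under other scalings or units. On log2(TPM + 1) and log2(TPM + 0.1), Cdk9 with JQ1 without LPS was at -0.0027 and -0.0028, Ccnt1 with LPS alone at -0.4488 and -0.4719, Cdk9 with JQ1 against IL-10 during LPS at 0.1513 and 0.1553, and the interaction of LPS with JQ1 was at 0.2937 and 0.3116 for Aff4 and 0.4558 and 0.4515 for Brd2. Under scaling by total counts, Ccnt1 was at -0.6542 with LPS alone, -0.2463 with LPS after JQ1 and 0.4079 in the interaction of LPS with JQ1, Larp7 at -0.0832 with LPS after JQ1, Cdk9 at 0.2437 with JQ1 against IL-10, and Aff4 and Brd2 at 0.3515 and 0.5051 in the interaction. The number of the 9 genes called in the interaction of LPS with JQ1 was 8 under scaling by total counts and ranged from 3 to 6 when libraries were left out. For the interaction of LPS with IL-10 it was 0 with edgeR and with only the groups compared, 2 with the lane covariate, both limma fits, the replicate block and scaling by total counts, and 0 to 2 when libraries were left out. For IL-10 during LPS it was 0 with only the groups compared. The replicate block changed the call of Ccnt2 with JQ1 during LPS and in its interaction, of Hexim1 in the interaction of LPS with IL-10 and of Ccnt1 with JQ1 against IL-10, and no other call among the 9 genes, and with lane as a covariate only the interactions of Ccnt2 with LPS and JQ1 (-0.3353) and of Hexim1 with LPS and IL-10 (0.3688) newly passed. The Brd2 weighted length difference, -22.2167 bases with the replicate block and -21.7833 with the effective length, and that of Brd3, -12.78 with the effective length, no longer passed. Over all genes, IL-10 during LPS gave 1947 calls, or 1093 with only the groups compared, IL-10 without LPS 365, or 123 to 243 with edgeR, limma, or without Unstimulated replicate 3, IL-10 replicate 1 or IL-10 replicate 2, and its interaction 798, or 500 with limma on log2(TPM + 0.1). The causes were not tested.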
